A study of Mus musculus with 158 samples.

Results

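The regions described here were open chromatin sites found in 4 of 5 mouse F1 hybrids and called in no tissue of the remaining one, B6xSPRET. DNase-seq maps sites where nuclear DNA is open to cutting by DNase I, and a hotspot is a stretch where the cuts pass a false discovery rate (FDR) of 5% in the hotspot2 program. Every mouse had a C57BL/6J (B6) mother. The fathers were laboratory strains in B6x129, whose strain is named with the processing, and in B6xC3H (C3H/HeJ), and wild-derived strains in B6xCAST (CAST/EiJ), B6xPWK (PWK/PhJ) and B6xSPRET (SPRET/EiJ). Whole liver, both kidneys, all lung lobes and B cells were taken, and solid tissues of several mice were usually pooled. The B cells came from femur marrow of female mice of 8 weeks, by depletion of cells with CD43 or Mac-1/CD11b. The authors pooled all samples of a hybrid and tissue before calling, which gave 20 sets of hotspots and no value per replicate. Each hotspot carries a −log10 FDR with a ceiling of 100, and a value of 1.301 is the 5% threshold.

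Hotspots of the 20 sets that shared 1 bp or more were merged on the autosomes into 714403 regions. A region was eligible when all 4 of B6x129, B6xC3H, B6xCAST and B6xPWK had a hotspot in it in the same tissue, in 2 or more tissues. Of 98667 eligible regions, the 669 without any B6xSPRET hotspot were selected on that lack of calls, and are the members described below. They were 0.678% of the eligible regions and 0.0936% of all merged regions. The choice used the hotspot calls themselves, so the lack of B6xSPRET calls and the calls of the other hybrids are given as a description with no test. The other 97998 eligible regions, which had a B6xSPRET hotspot in 1 or more tissues, are called kept regions. The 6612 of them with such a hotspot in exactly 1 tissue are the nearest to the members.

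Accessible sites include promoters, distal enhancers, and sites held by the zinc finger protein CTCF, which marks chromatin loop and domain boundaries and is bound at many of the same sites in different cell types. Which sites are open depends on the proteins present in the nucleus and on the DNA sequence that they bind. An F1 hybrid holds one chromosome set from each parent in the same nucleus, so the B6 copy of every member was present in B6xSPRET too. SPRET/EiJ is an inbred strain of Mus spretus, a different species from the house mouse and the most diverged of the fathers.

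The sequences of 6 members are printed because they show features counted below, the core of the CTCF motif and repeated DNA. They were picked to show these features, and the motif was in the windows of 3 of the first 12 members. Each is 300 bases of the B6 reference (mm10, GRCm38.p6), forward strand, around the base covered by the most hotspots of the other hybrids. Capitals mark the motif CCNNNAGNNGGC on either strand, the core of the CTCF motif, which can overlap the shorter CTCF string AGGGGGCGC that is counted separately. Members are named by the nearest start of a protein-coding gene. The windows lie at chr7:100325520-100325819 for P4ha3, chr13:107927865-107928164 for Smim15, chr5:32204687-32204986 for Plb1, chr9:95599464-95599763 for Pcolce2, chr19:9837087-9837386 for Scgb2a2 and chr4:147136953-147137252 for Zfp991. The P4ha3, Smim15, Plb1 and Pcolce2 windows hold the motif, and the other two hold none.
P4ha3: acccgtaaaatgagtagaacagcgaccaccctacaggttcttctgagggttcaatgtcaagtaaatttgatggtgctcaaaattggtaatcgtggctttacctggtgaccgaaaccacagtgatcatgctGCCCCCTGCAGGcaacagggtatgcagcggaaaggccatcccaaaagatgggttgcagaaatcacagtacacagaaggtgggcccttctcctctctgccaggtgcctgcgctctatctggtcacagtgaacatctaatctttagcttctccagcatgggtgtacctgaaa
Smim15: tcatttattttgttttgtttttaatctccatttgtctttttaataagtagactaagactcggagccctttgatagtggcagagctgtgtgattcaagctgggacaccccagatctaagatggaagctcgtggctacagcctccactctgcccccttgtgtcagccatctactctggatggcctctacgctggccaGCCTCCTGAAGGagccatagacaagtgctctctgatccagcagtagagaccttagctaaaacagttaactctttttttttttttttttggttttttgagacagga
Plb1: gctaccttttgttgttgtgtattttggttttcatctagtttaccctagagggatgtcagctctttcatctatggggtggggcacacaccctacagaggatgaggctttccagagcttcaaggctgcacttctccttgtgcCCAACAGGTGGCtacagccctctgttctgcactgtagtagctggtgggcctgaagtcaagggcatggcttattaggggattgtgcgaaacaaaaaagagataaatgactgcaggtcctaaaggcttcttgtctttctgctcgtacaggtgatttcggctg
Pcolce2: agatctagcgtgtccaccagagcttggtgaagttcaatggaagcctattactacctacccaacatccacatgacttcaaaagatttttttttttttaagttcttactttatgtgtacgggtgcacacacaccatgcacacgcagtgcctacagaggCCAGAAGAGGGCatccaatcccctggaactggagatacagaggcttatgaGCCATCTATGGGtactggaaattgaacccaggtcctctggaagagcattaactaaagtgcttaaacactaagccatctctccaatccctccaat
Scgb2a2: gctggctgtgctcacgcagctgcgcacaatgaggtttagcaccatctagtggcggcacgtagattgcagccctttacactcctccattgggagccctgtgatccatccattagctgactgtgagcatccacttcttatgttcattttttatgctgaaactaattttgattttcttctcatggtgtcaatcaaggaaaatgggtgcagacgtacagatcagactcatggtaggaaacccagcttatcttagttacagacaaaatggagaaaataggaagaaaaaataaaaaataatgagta
Zfp991: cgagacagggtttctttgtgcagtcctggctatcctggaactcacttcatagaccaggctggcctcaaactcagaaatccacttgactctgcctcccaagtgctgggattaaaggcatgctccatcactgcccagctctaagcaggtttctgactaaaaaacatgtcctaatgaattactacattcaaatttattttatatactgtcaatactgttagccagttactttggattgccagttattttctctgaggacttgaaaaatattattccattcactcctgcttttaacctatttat

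The same rule was applied with each other hybrid in the place of B6xSPRET. It left 711 of 99824 eligible regions missing only in B6xC3H (0.712%, 95% Wilson interval 0.662 to 0.766%), against 669 of 98667 in B6xSPRET (0.678%, 0.629 to 0.731%). These intervals cover counting error only and overlap. There were 86 regions missing only in B6xPWK (0.0935% of 92025), 31 in B6xCAST (0.0339% of 91499) and 9 in B6x129 (0.00994% of 90583). B6xSPRET thus stood with B6xC3H and above the remaining hybrids, and a site missing in 1 hybrid was not particular to B6xSPRET. When each set was limited to its 75000 highest hotspots, 113 of the eligible regions were missing only in B6xSPRET (0.251%), 48 only in B6xC3H (0.109%) and 99 only in B6xPWK (0.224%). At equal set size B6xSPRET thus stood close to B6xPWK, and B6xC3H lay below both. Without B6xC3H in the rule, the number missing in B6xSPRET was 2550.

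**Figure D1:**
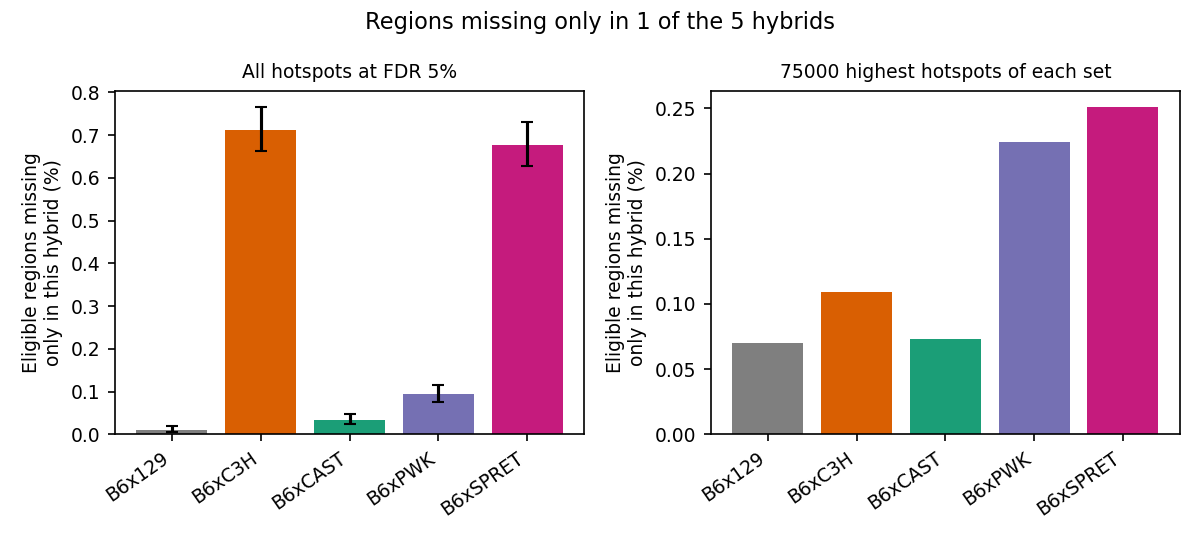
Percent of eligible regions missing only in the hybrid named under each bar, with all hotspots at FDR 5% (left, with 95% Wilson intervals) and with the 75000 highest hotspots of each set (right). On the left B6xC3H (0.712%) and B6xSPRET (0.678%) stand above the other 3 hybrids, and on the right B6xSPRET (0.251%) and B6xPWK (0.224%) are the highest.

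B6xSPRET and B6xC3H, which had the highest shares with all hotspots, had the fewest hotspots in each tissue. Of the remaining hybrids, B6xPWK had a larger share missing than B6xCAST. It had more hotspots than B6xCAST in liver (235351 and 226868) and kidney (224834 and 222467). In lung (188589 and 273104) and B cells (130084 and 151020) it had fewer. B6xSPRET had the fewest hotspots of the 5 hybrids in liver (205195) and kidney (181072), and B6xC3H had the fewest in lung (147871) and B cells (76055), where B6xSPRET had 164864 and 88838. The study's read counts put B6xSPRET lowest in depth in each tissue. The labels listed 18 DNase-seq entries for B6xSPRET, between 2 and 7 per set, 17 for B6x129 and 48 for B6xCAST. The part of depth and of these set sizes in the choice of members was not tested.

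Of the members, 638 met the rule in exactly 2 tissues, 26 in 3 and 5 in all 4. Liver and kidney together made up 287 members (42.9%), kidney and lung 123, liver and lung 88, lung and B cells 57, liver and B cells 46, and kidney and B cells 37. In the regions missing only in B6xC3H, liver and kidney made up 57 of 711 (8.02%), while liver and lung made up 223, lung and B cells 182 and kidney and lung 151. Liver and kidney were also the most frequent pair among kept regions that met the rule in exactly 2 tissues (22579 of 45431, 49.7%), slightly above the members of that kind (287 of 638, 44.98%), so the pair was not raised in members. The regions missing only in B6xC3H lay mostly in pairs with lung. A further 18100 regions without a B6xSPRET hotspot had all 4 other hybrids in 1 tissue only and were outside the rule.

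Most members were weak sites in the other hybrids. The −log10 FDR summed over the 16 sets of the other hybrids had a median of 53.0 in members, 90.1 in regions with a B6xSPRET hotspot in 1 tissue, 336 in kept regions and 51.5 in regions missing only in B6xC3H. The sum was under 80 in 530 members (79.2%), and 201 members (30.0%) had no value of 10 or more in any set. The share of eligible regions missing only in B6xSPRET was 15.3% at sums under 40 (170 of 1111), 4.30% from 40 to under 80 (360 of 8369), 0.643% from 80 to under 150 (101 of 15711) and 0.0517% at 150 or more (38 of 73476). It fell in the same way for B6xC3H, from 17.5% through 4.36% and 0.733% to 0.0244% (18 of 73702). At sums of 150 or more the Wilson interval of B6xSPRET (0.0377 to 0.0710%) lay above that of B6xPWK (0.00309 to 0.0169%), and its lower end lay just under the upper end of that of B6xC3H (0.0154 to 0.0386%).

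**Figure D2:**
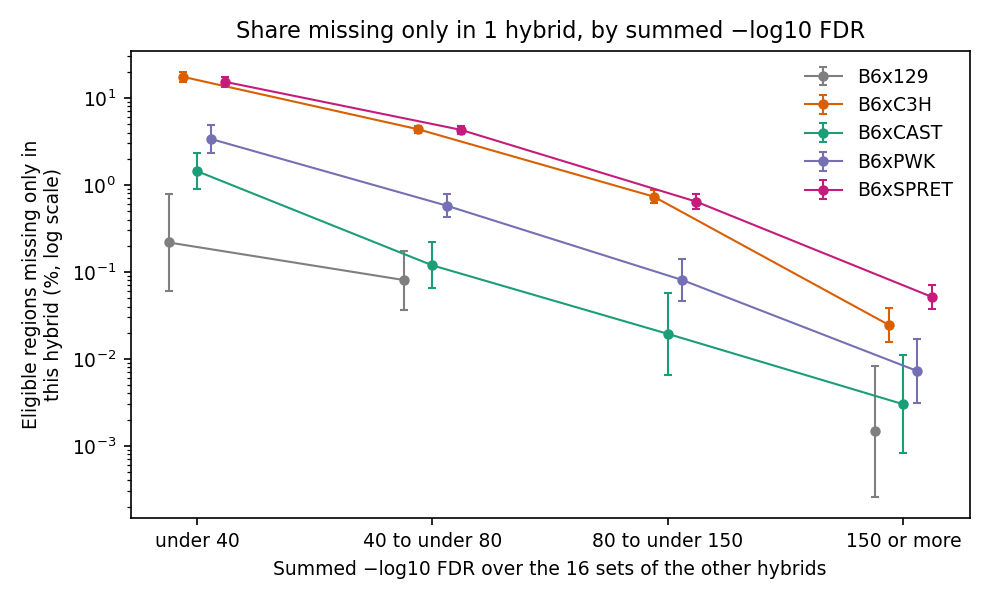
Percent of eligible regions missing only in each hybrid (log axis) by the summed −log10 FDR of the other hybrids' 16 sets, with 95% Wilson intervals. The share falls with the sum in B6xSPRET from 15.3% to 0.0517%. B6x129 has no missing region in the bin from 80 to under 150, and no point is drawn there.

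Within single sets the members sat in the lower or middle part of the ranking. A member's hotspot in B6x129 liver had a median value of 6.94, higher than 53.3% of that set's hotspots, while kept regions had a median of 46.6, higher than 79.6%. The lowest standing was in B6xC3H lung, where members had a median value of 2.32 (27.9% of the set below), and the highest was in B6xCAST B cells, with a median of 11.7 (58.4% below). Across the 16 sets kept regions stood at 68.4 to 80.8%. Only 22 of the 6531 hotspot values of members, in 15 members, were at the ceiling of 100. Where the rule was met in liver, in 448 members, B6x129 had the highest value of the 4 hybrids in 239. In the 160 members meeting it in B cells B6xCAST was highest in 126. Kept regions also had their highest median in B6x129 in liver (46.6) and in B6xCAST in B cells (55.4), so this order was not particular to members.

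The edge of the rule was set by weak calls. The lowest of the 8 values that qualified a region, 4 hybrids in its 2 best tissues, had a median of 1.88 in members and 7.78 in kept regions. It was 5 or more in 10 members (1.49%) and in 62.4% of kept regions. The member last in the order of strength, 31483 bp from the start of March3, had liver values of 2.63, 1.45, 2.22 and 1.97 in B6x129, B6xC3H, B6xCAST and B6xPWK and kidney values of 2.16, 2.19, 1.79 and 2.56. Just outside the rule lay chr7:63802641-63803278, 113579 bp from the start of E030018B13Rik, with hotspots in all 16 other sets, a summed value of 615, and a single B6xSPRET hotspot, in kidney, at 9.29.

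The members with hotspots in all 16 other sets numbered 5, and a further 8 had 15. The widest, chr7:100325332-100326103, lay 39812 bp from P4ha3, a subunit gene of prolyl 4-hydroxylase, which modifies collagen. Its values in B6x129, B6xC3H, B6xCAST and B6xPWK were 26.5, 19.1, 2.24 and 2.11 in liver, 10.8, 16.4, 18.9 and 9.68 in kidney, 17.7, 2.57, 15.8 and 3.40 in lung, and 8.26, 3.50, 28.98 and 4.96 in B cells. The hybrid with the highest value was B6x129 in liver and lung and B6xCAST in kidney and B cells, and none of the 16 values was near the ceiling. Its nearest B6xSPRET hotspot was 1280 bp away.

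The first member in that order, chr19:9837211-9837409, lay between genes, 10153 bp from Scgb2a2, a secretoglobin gene. In the same order of hybrids its values were 32.8, 20.6, 3.36 and 8.30 in liver, 2.43, 25.3, 14.5 and 4.15 in kidney, 18.1, 12.5, 7.72 and 3.79 in lung, and 38.8, 4.91, 30.0 and 9.51 in B cells. A B6xSPRET hotspot of any tissue was 10026 bp away, and the stretch free of them measured 92966 bp. In the second, chr4:126062931-126063247 in an intron 4327 bp from Oscp1, the values were 26.2, 11.8, 10.2 and 11.9 in liver and 34.6, 2.42, 34.0 and 21.5 in B cells. Here a B6xSPRET hotspot began only 63 bp away, so B6xSPRET had accessible DNA beside the region without one overlapping it.

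The other members among the first 12 were near Smim15, Car15, a carbonic anhydrase gene, Nuf2, a kinetochore gene, Gm10775, Actr10, Ndufab1, Smc3, the gene of a cohesin subunit, Dgkh and Adam9. Their summed values ran from 74.3 at Adam9 to 362 at Nuf2. At chr1:169517455-169517827, in an intron 13584 bp from the start of Nuf2, B6xPWK was low as well. The B6x129, B6xC3H and B6xCAST values there were 44.5, 13.3 and 16.2 in liver and 56.2, 31.2 and 31.9 in kidney. In B6xPWK no hotspot was called in liver, and the values were 1.95 in B cells, 1.91 in kidney and 2.499 in lung, below every value of the other 3 hybrids at this region. Only 50.2% of the 36-base words around it occurred once in the reference.

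**Figure D3:**
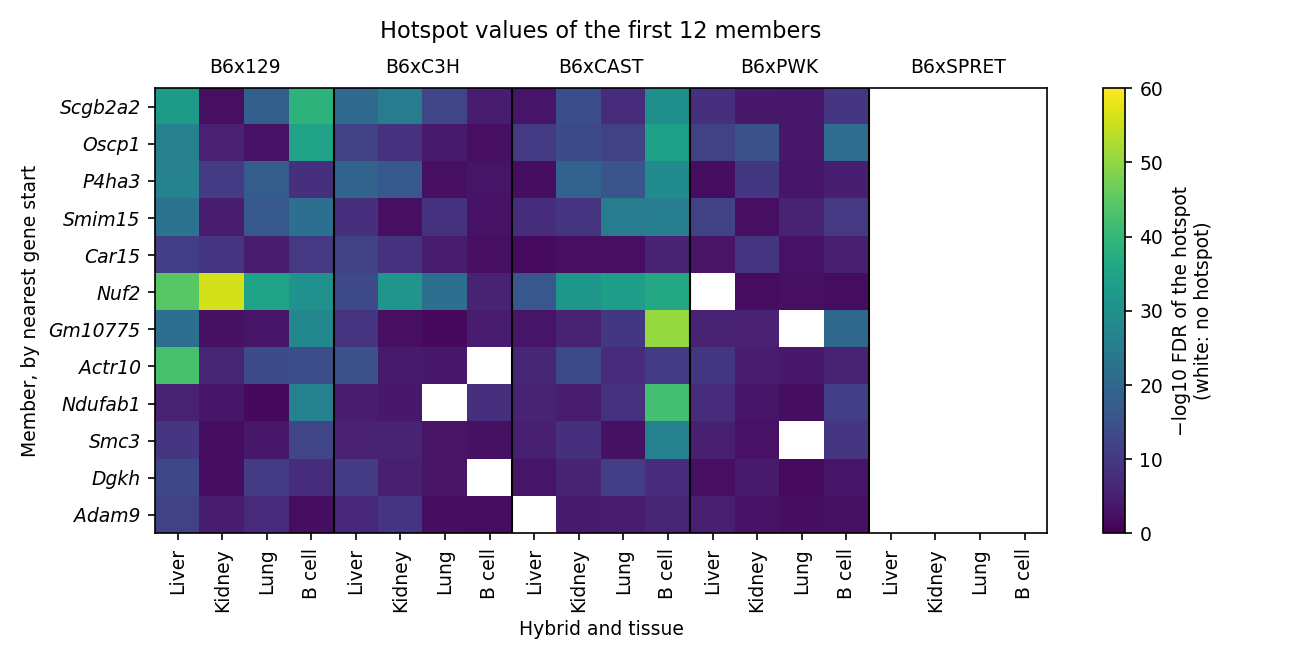
Hotspot −log10 FDR (colour, 0 to 60) of the first 12 members in the 20 sets, by hybrid and tissue, white where no hotspot was called. The 4 B6xSPRET columns are white by the rule, and Nuf2 has low values or none in B6xPWK (at most 2.499).

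A group of members stood out by their summed value rather than by the number of sets, and these were chosen after their values were seen. The region chr7:118755309-118756158, in an intron 7966 bp from the start of Vps35l, a gene of endosomal sorting, had liver values of 100, 88.3, 100 and 100 in B6x129, B6xC3H, B6xCAST and B6xPWK. Its lung values were 26.1, 6.96, 25.9 and 17.9, and none of the 4 hybrids had a hotspot in kidney or B cells. A B6xSPRET hotspot lay 514 bp away, and all 36-base words of its window occurred once in the reference. It had no mESC CTCF hotspot, and its lowest qualifying value, 6.96 in B6xC3H lung, was above that of most members.

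The highest summed value of any member, 534, was at chr4:147137059-147137202, 5021 bp from Zfp991, a zinc finger gene in a cluster of related genes. Its values were 9.08, 0, 100 and 0 in liver and 0, 100, 100 and 3.59 in kidney, where 0 stands for no hotspot. The rule was met in lung, with 4.31, 3.95, 4.54 and 2.46, and in B cells, with 100, 2.75, 100 and 3.68. Ceiling values and values near the threshold thus stood side by side within a tissue. Of its 36-base words 35.1% were unique, with a median of 4 copies, and the B6xSPRET-free stretch around it, 117574 bp, was the longest around any member. At chr2:21659513-21659751, in an intron 291971 bp from the start of Gpr158, and chr10:27701962-27702200, between genes near Lama2, 94.98% and 97.9% of the bases were repeat-masked. Their B cell values were 86.1, 6.83, 37.3 and 0 at Gpr158 and 31.5, 1.90, 18.4 and 0 at Lama2, with B6xPWK values of 22.7 and 34.3 in liver, and both lacked a B6xPWK hotspot in B cells and a B6x129 hotspot in kidney.

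Members were narrow and mostly far from promoters. Their median width was 352 bp (range 130 to 3030 bp), against 497 bp in regions with a B6xSPRET hotspot in 1 tissue, 776 bp in kept regions and 401 bp in those missing only in B6xC3H. A protein-coding start lay within 1 kb of 15 members (2.24%, 1.36 to 3.67%), compared with 3.71% of the regions with a B6xSPRET hotspot in 1 tissue, 15.4% of kept regions and 4.78% of regions missing only in B6xC3H. Kept regions with summed values under 40, the closest in strength to the weakest members, had 3.61%. Introns held 398 members (59.5%) and intergenic DNA 236 (35.3%), against 50.7% and 39.2% of kept regions. The mean number of CpG dinucleotides in 300 bases was 3.69 in members and 6.69 in kept regions, and the median GC content was 47.3% and 49.3%.

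The 15 members near a start included developmental and metabolic genes. One, chr10:62132452-62132993, lay 97 bp from Neurog3, a transcription factor gene of endocrine pancreas development, with values of 18.1, 1.77, 2.72 and 3.06 in liver and 4.61, 4.28, 15.2 and 10.6 in B cells. The region over the start of Plin4, a gene of a lipid droplet protein, had liver values of 18.5, 29.2, 7.38 and 4.71 and kidney values of 7.85, 5.93, 2.45 and 2.61. At Iqsec1, 698 bp from the start, the values were 8.30, 3.85, 7.04 and 2.79 in liver and 3.95, 3.10, 8.32 and 1.91 in kidney. The others of the first 10 near a start were at Noc2l, Tmem52b, Eva1c, Mettl7a1, Atp5g2, Kcnh5, a potassium channel gene, and Dct, a gene of melanin synthesis. Only 3 of the 15 covered the start itself, and no member near a start had a summed value of 150 or more.

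The members were scattered. Each autosome held 18 to 51 of them, or 0.507 to 0.819% of its eligible regions. The nearest B6xSPRET hotspot of any tissue was at a median of 1390 bp, against 1543 bp to the nearest B6xC3H hotspot for the regions missing only in B6xC3H. It was less than 500 bp away for 150 members (22.4%) and farther than 10 kb for 33. No stretch between neighbouring B6xSPRET hotspots held 3 or more members, and only 3 stretches held 2, near Ifrd1, Ecd and Acaa2. By gene name, 13 members lay nearest to a Zfp gene (1.94%, 1.55% of kept regions), 13 to a solute carrier (1.94%, 2.19%), 5 to a Cyp gene (0.747%, 0.334%) and 4 to an olfactory or vomeronasal receptor gene (0.598%, 0.327%). The Ces, Ugt, Serpin, H2, Klr, Mup and interferon-induced families had none, and each made up 0.0204 to 0.168% of kept regions, so a count of 0 is near their overall share.

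Regions made mostly of repeated DNA were more frequent among members. Repeat-masked bases made up 50% or more of 81 members (12.1%, 9.85 to 14.8%), against 5.66% of the regions with a B6xSPRET hotspot in 1 tissue, 3.09% of kept regions and 5.20% of those missing only in B6xC3H. Regions with no masked base were more frequent too, at 16.3% of members (13.7 to 19.3%) and 6.92% of kept regions, so members spread both ways around a like median, 12.9% against 12.2%. In regions missing only in B6xC3H 17.6% had no masked base, and the median was 9.66%. The median was 10.7% in the 86 regions missing only in B6xPWK and 3.49% in the 9 of B6x129. In the 31 regions missing only in B6xCAST it was 19.4%, above that of members. At sums under 40, the masked group was 8.82% of members and 5.53% of kept regions, and at sums of 150 or more it was 21.1% (8 of 38) and 2.31%. Windows in which fewer than 90% of the 36-base words were unique made up 10.2% of members (68), 4.98% of kept regions and 5.34% of those missing only in B6xC3H. Of the 38 members with sums of 150 or more, 12 (31.6%) had such windows, against 4.65% of kept regions and 22.2% (4 of 18) in the B6xC3H group. The authors kept only reads that mapped uniquely, to both mm10 and a genome of the father's strain, and the part of mapping in the lack of B6xSPRET calls was not tested.

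CTCF binding was read from a CTCF ChIP-seq hotspot set of 1 sample of B6xCAST mouse embryonic stem cells (mESCs). The rule did not use this measure, which comes from other cells and is without B6xSPRET. The labels and the study's methods name these cells B6xCAST, while its table of mESC samples lists them as B6xC3H. The CTCF set overlapped 139 of 669 members (20.8%, 17.9 to 24.01%) and 52 of 711 regions missing only in B6xC3H (7.31%, 5.62 to 9.47%). Of the 86 regions missing only in B6xPWK it overlapped 26.7%. For B6xCAST (31 regions) this was 12.9%, and for B6x129 (9 regions) 22.2%. A share as high as that of the members was thus not particular to B6xSPRET. The share was 13.1% in regions with a B6xSPRET hotspot in 1 tissue and 32.2% in kept regions. Kept regions are stronger and are open in more tissues. Among those with all 4 other hybrids in exactly 2 tissues the share was 12.1%, against 19.3% (16.4 to 22.5%) in members of that kind, and among kept regions with sums under 80 it was 12.2%, against 17.5% (14.5 to 21.02%). Members thus had fewer CTCF hotspots than kept regions as a whole, and more than kept regions within these 2 limits. With 3 or more tissues the shares were close, at 51.6% of 31 members and 49.6% of kept regions.

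The share depended on how many of the other hybrids' 16 sets had a hotspot. Of members with 8 sets, the least the rule allows, 2.78% had a CTCF hotspot (7 of 252), compared with 3.34% of kept regions with 8 sets. With 9 sets the shares were 17.8% and 7.42%, with 10 sets 23.1% and 11.3%, with 11 sets 32.9% and 13.4%, and with 12 to 13 sets 45.8% (35.5 to 56.5%) and 20.1%. With 14 to 16 sets they met, at 62.2% (23 of 37) and 62.0%. Regions missing only in B6xC3H had 1.77, 5.67, 9.57, 8.16, 21.2 and 27.6% in the same order, below the members in each bin, and the Wilson intervals of the 2 groups overlapped at 8 and at 10 sets. All 5 members in 16 sets and 11 of the first 12 had a CTCF hotspot, Adam9 being the exception.

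**Figure D4:**
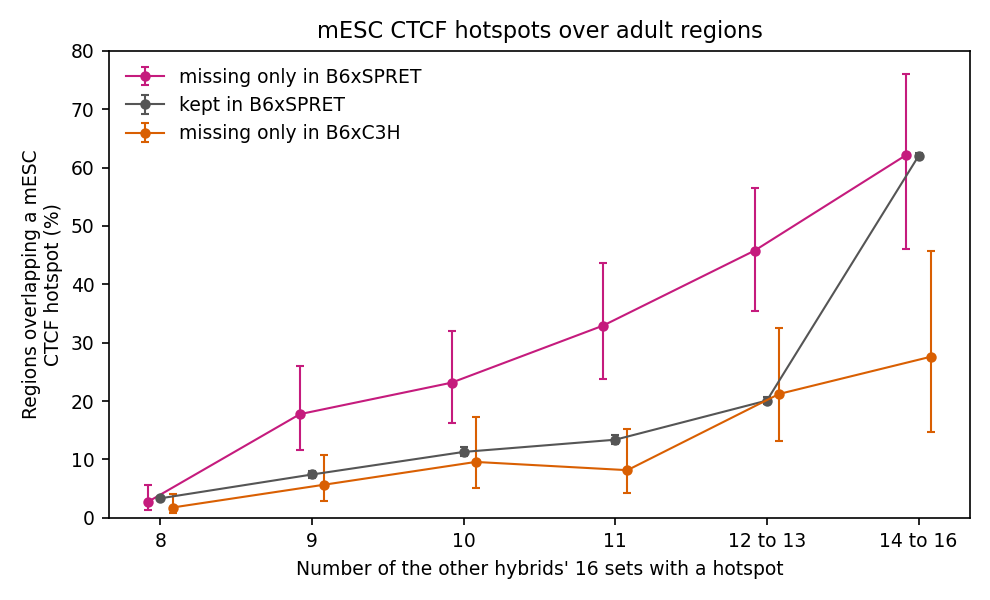
Percent of regions overlapping a mESC CTCF hotspot, by the number of the other hybrids' 16 sets with a hotspot, for members, kept regions and regions missing only in B6xC3H, with 95% Wilson intervals. Members lie above kept regions from 9 to 13 sets (45.8% against 20.1% at 12 to 13) and meet them at 14 to 16.

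The CTCF core motif, which was chosen after the sequences had been seen, was counted without the ChIP-seq data. It occurred in the 300-base windows of 105 members (15.7%, 13.1 to 18.6%), 18.4% of kept regions, 8.97% of kept regions with 2 qualifying tissues, 9.52% of those with sums under 80 and 5.63% of regions missing only in B6xC3H. Of the members with a CTCF hotspot, 47.5% held it (66 of 139), compared with 44.7% of kept regions with one. Among members with hotspots in 14 to 16 sets, 8 of 37 windows held it (21.6%), against 32.7% of kept regions. The shorter string AGGGGGCGC, which holds a CpG, was in 2 members (0.299%) and 1.65% of kept regions. The strongest CTCF hotspots over members had values of 79.1 at Plb1, 71.2 at Cmklr1 and 56.9 at Pcolce2, and the Plb1 and Pcolce2 windows hold the core as printed above.

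These CTCF regions were modest in the adult tissues. The member at chr5:32204674-32204993, 27721 bp from Plb1, had B cell values of 7.34, 2.65, 30.8 and 11.9 in B6x129, B6xC3H, B6xCAST and B6xPWK and kidney values of 1.45, 1.63, 10.9 and 3.55. The member at chr9:95599482-95599765, 37836 bp from Pcolce2, had liver values of 15.2, 5.61, 6.05 and 5.10 and kidney values of 2.19, 2.09, 3.41 and 1.98, and 67.6% of its bases were repeat-masked. At Cmklr1, a chemoattractant receptor gene, the B6x129 liver value was 16.2 and the other hybrids had 4.55, 1.89 and 1.91. In each of these members at least 1 qualifying value was under 2.

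CTCF members differed from the rest in tissue and in repeat content. Liver and B cells together gave 28 CTCF members of 46 (60.9%), against 22.2% of kept regions and 23.1% of regions missing only in B6xC3H with that pair. Liver and kidney gave 66 of 287 (23.0%, kept 15.7%) and liver and lung 11 of 88 (12.5%, kept 5.37%), with 12.3% and 1.35% of the regions missing only in B6xC3H. Pairs without liver did not show this order. Kidney and lung gave 4.88% of members, 7.45% of kept regions and 6.62% of regions missing only in B6xC3H, kidney and B cells 24.3, 25.4 and 36%, and lung and B cells 5.26, 5.62 and 4.95%. The totals of members and of regions missing only in B6xC3H thus mix different pairs. Of the 139 CTCF members 37 (26.6%, 19.97 to 34.5%) were repeat-masked over 50% or more of their bases, against 44 of the 530 without a CTCF hotspot (8.30%, 6.24 to 10.96%). In kept regions these shares were 4.90% and 2.23%, and in kept regions with sums under 80 they were 15.4% and 3.64%. Regions missing only in B6xC3H had 17.3% and 4.25%, and those with a B6xSPRET hotspot in 1 tissue 16.6% and 4.00%. The contrast in repeat content was thus not particular to members. Only 61 of the 139 CTCF members (43.9%) had a DNase hotspot in mESCs, close to the 45.0% of CTCF regions kept with sums under 80 and below the 83.0% of all kept CTCF regions. mESC DNase hotspots overlapped 17.0% of all members, 41.5% of kept regions and 9.99% of those missing only in B6xC3H.

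**Figure D5:**
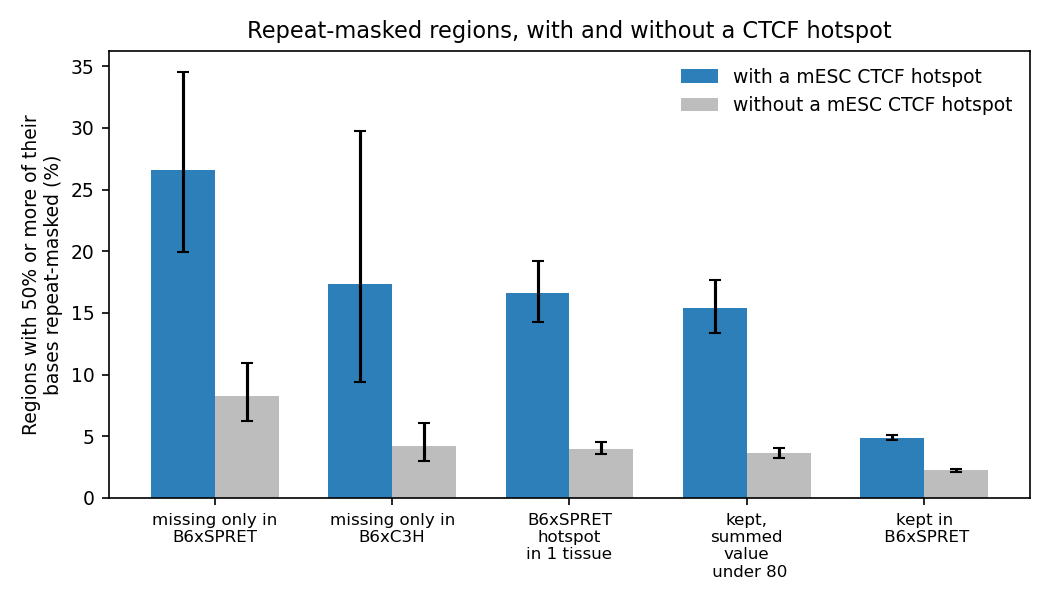
Percent of regions with 50% or more of their bases repeat-masked, with and without a mESC CTCF hotspot, in 5 groups of eligible regions, with 95% Wilson intervals. CTCF members reach 26.6% and members without CTCF 8.30%, and in kept regions both shares are under 5%. Regions missing only in B6xC3H show the same order, with 17.3% and 4.25%.

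Sequence motifs of other factors were counted in the same windows, on both strands. The ETS string CCGGAAGT was in 0 of 669, with a Wilson interval up to 0.571%. It was in 1.37% of kept regions, 0.665% of regions with a B6xSPRET hotspot in 1 tissue and 0.422% of those missing only in B6xC3H. The KLF/SP string GGGGCGGGG was in 6 (0.897%), against 3.96, 1.56 and 1.83% in the same groups. The promoter motifs NFY (GCCAAT) and NRF1 (GCGCATGCG) were in 11.1% and 0.299% of members and 11.6% and 0.472% of kept regions. The liver motif FOXA (TGTTTAC) was in 3.14% of members and 5.75% of kept regions. The AP-1 string TGANTCA was in 11.2% and 11.1%, and in 17.9% of regions missing only in B6xC3H. RUNX (AACCACA) was in 10.5% and 7.54%, IRF (GAAANNGAA) in 11.8% and 9.74%, C/EBP (TTGCNNAA) in 13.8% and 15.2%, and the NFI string TTGGCA in 22.1% and 22.3%. The RUNX and FOXA shares of kept regions lay outside the members' Wilson intervals (8.37 to 13.01% and 2.06 to 4.75%), but the shares of regions missing only in B6xC3H, 10.3% and 4.08%, lay inside. Those of kept regions for HNF1, HNF4, AP-1, IRF, C/EBP and NFI lay inside the members' intervals.

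The 20 sets carried the open chromatin of their labelled tissues. Each of 4 marker genes per tissue had a hotspot over its start in all 5 hybrids, 80 of 80 in all and 16 of 16 in B6xSPRET. Markers of other cells gave mixed counts, with no test. Endothelial starts (Cdh5, Pecam1) had a hotspot in 5 of 8 cases in B6xSPRET, with none of 2 in liver, and in 7 of 8 in each other hybrid. Macrophage starts (Adgre1, Csf1r) had one in 3 of 8, as in B6xC3H, and in 4 to 6 of 8 elsewhere, and T cell starts (Cd3e, Cd3g) in 1 of 8, with 0 in B6xC3H and 2 to 5 elsewhere. B cell markers had a hotspot in the other tissues in 6 of 12 cases in B6xSPRET and in 4 to 8 of 12 in the other hybrids. The share of other cells and the number of reads cannot be told apart in these pooled sets, and their part in the members was not tested.

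RNA-seq of the same tissues was compared for B6xSPRET (7 libraries) against B6xPWK (5) and B6xC3H (4), with tissue as a covariate, a readout that the rule did not use. With edgeR's quasi-likelihood test and Benjamini-Hochberg adjustment over 4976 genes, 119 were called at an adjusted p of 0.05 (2.39%), of which 82 were higher in B6xSPRET (1.65%) and 37 lower (0.744%). Of the 72 tested genes with a start within 10 kb of a member, 1 was called (1.39%). The unadjusted p was under 0.05 in 7 of these 72 genes, and in 692 of all 4976, a larger share. The called gene was Tuba4a, an alpha tubulin gene, whose start lay 5660 bp from the member at chr1:75224954-75225235. Its CPM ran in liver from 260 and 292 in B6xC3H and B6xPWK to 432 and 888 in B6xSPRET, and in kidney from 204 and 205 to 362 and 395. In lung it was 56.0 and 78.8 against 114 and 141, and in B cells 121, 127 and 147 against 158, so B6xSPRET was highest in each tissue. The fitted log2 fold change was 0.88 (adjusted p = 0.0179, edgeR's quasi-likelihood test), and without B6xSPRET kidney replicate 2 no gene near a member was called. The call was also lost without B6xC3H lung replicate 1 and without a filter on low counts, where 1 other gene near a member was called, lower in B6xSPRET. That member had hotspots in liver and kidney, with values of 14.1, 6.66, 1.86 and 1.71 and of 3.73, 6.48, 3.50 and 3.31. The tables may count the strand opposite to the gene, since the antisense gene Tsix exceeded Xist at least 6.2-fold in 16 of 16 libraries. This would bear on all 4976 genes tested and on the 119 calls. An annotated exon of the other strand overlaps Tuba4a, so its value is uncertain. A share of 1.39% near members against 2.39% overall is no result about the members.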

How the data were processed

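The fathers of the B6x129 mice were 129S1/SvImJ. DNase-seq hotspots were taken as deposited. The authors mapped reads with BWA to mm10 and to a genome of the father's strain, kept unique alignments, pooled each hybrid's samples of a tissue and ran hotspot2 on the pool at FDR 5%. The deposited value of each hotspot is its −log10 FDR, which was used to rank hotspots within a set and summed to order regions. RNA tables hold expected counts per gene, which the authors made with RSEM and STAR. They were not normalized, summed to 283725 to 809337 per library, and were rounded here. The library labelled B6xCAST was left out, because its label and the study's table differ, and the TPM values were not used.

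Members, motifs and gene lists were chosen with earlier results of these data known. Regions were merged at 1 bp of overlap, and a base was taken as most shared where the most hotspots of the 20 sets covered it. For members only the 16 sets of the other hybrids could count. Gene starts came from GENCODE vM21, with distance taken to the nearest protein-coding start, and repeat-masked bases came from lower case in the GRCm38.p6 sequence. Uniqueness was the share of 265 words of 36 bases per 300-base window found once on both strands of chromosomes 1 to 19 and X. Shares have 95% Wilson intervals, which cover counting error only. Since the authors pooled replicates, differences between region groups were described with no test. Named were the first 12 members by number of sets and then summed value, the first 10 within 1 kb of a start, the 3 with the highest mESC CTCF value, called genes within 10 kb, stretches with 3 or more members, of which there were none, and the regions at the edge of the rule. The p-values for RNA measure the spread between libraries that may share a source.

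RNA was tested with edgeR 4.0.16 (TMM, filterByExpr, adjusted p threshold 0.05) in R 4.3.3, with DESeq2 1.42.0 as an alternative. Region counting and the RNA test were tested on simulated data. Python 3.11.15, numpy 2.4.6, pandas 2.3.3, scipy 1.17.1, numba 0.67.0 and matplotlib 3.10.9 were used. One further marker list was examined and is not reported here.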

Additional observations from a re-analysis of the deposited data

Results flagged for a closer look

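On chromosome X, which the rule left out, 19 of 2533 eligible regions had no B6xSPRET hotspot (0.750%, 95% Wilson interval 0.481 to 1.17%), drawing attention as a signal in data that the comparisons did not use. The same rule left 18 of 2568 missing only in B6xC3H (0.701%), 5 in B6xPWK, 2 in B6xCAST and 0 of 2331 in B6x129. The autosomal shares were 0.678% for B6xSPRET and 0.712% for B6xC3H, inside both X intervals (0.444 to 1.11% for B6xC3H), and the X regions were not described further.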

How the results depend on the processing

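With a threshold of FDR 1%, hotspots merged within 150 bp, or windows with 90% or more unique 36-base words (added after the data had been seen), there were 610, 624 and 601 members, and the shares missing in B6xSPRET and B6xC3H, the CTCF share and the masked share moved by less than their counting error or 1.5 times. The number of members was 113 with 75000 hotspots per set, 18769 with 1 or more tissues, 31 with 3 or more, 409 without liver, 374 without kidney, 2550 without B6xC3H, 1056 without B6xCAST and 1279 without B6xPWK. In the same order, the share of eligible regions missing only in B6xSPRET was 0.251, 8.24, 0.0589, 0.594, 0.587, 2.14, 1.02 and 1.23%. It was 0.833% without B6x129, 0.762% when the hotspot had to cover the most shared base, and 0.526% when no B6xSPRET hotspot lay within 500 bp.

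The share missing only in B6xC3H was 0.109% with 75000 hotspots per set, 7.80% with 1 or more tissues, 0.0646% with 3 or more, 0.557% with none within 500 bp, 0.804% without liver, 0.9996% without kidney, 0.293% without lung, 1.03% without B6x129, 0.894% without B6xCAST and 1.08% without B6xPWK. It was below that of B6xSPRET with 75000 hotspots per set, with 1 or more tissues, over the most shared base, and without lung, B cells, B6xCAST or B6xPWK, and above it in the other settings where both were computed. The cause was not tested.

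The share of members near a protein-coding start was 10.6% with 75000 hotspots per set, 4.01% without kidney and 4.14% without B6xPWK. The mESC DNase share was 34.5% with 75000 hotspots per set, 6.55% with 1 or more tissues, 25.8% with 3 or more, 24.9% without kidney, 23.9% without B cells and 13.1% without B6xC3H. For mESC CTCF these were 33.6, 6.70, 51.6, 30.2, 26.1 and 14.4%, with 24.7% without lung. The median masked share was 27.7% with 3 or more tissues. In each setting of hotspots, tissues and hybrids that gave both, the CTCF share was higher in regions missing only in B6xSPRET than in those missing only in B6xC3H. Regions missing only in the other hybrids were not compared across settings.

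RNA calls numbered 266 without a filter on low counts and 142 by DESeq2, and 80 to 245 when 1 library was left out, the extremes being without B6xSPRET lung replicate 1 and B6xC3H B cell replicate 1. Near members, 0 of 19 tested genes were called within 2 kb and 6 of 283 within 50 kb. Of all 4976 genes tested, 119 (2.39%) were called, so these counts are no result about the members. When 1 library was left out, 0 to 2 genes within 10 kb were called, with 2 without B6xSPRET lung replicate 1 or B6xPWK B cell replicate 2. No paired analysis was possible because the RNA replicate numbers only name libraries of 1 hybrid and tissue, and the hotspot sets are pooled. Pooling and a single depth per set limit what a missing call means: a region without a B6xSPRET hotspot did not pass the threshold at that depth.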
